A study of Mus musculus with 8 samples.

Results

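The 30 genes described here encode enzymes of cholesterol synthesis, the sterol-sensing machinery that controls them, and fatty acid, acetate and sterol carrier genes under the same control. They were taken by symbol from a list of pathway genes and matched by Ensembl gene identifier without its version suffix. A gene had to reach 10 counts in at least 2 of the 8 libraries. All 30 did so in all 8 libraries, the lowest count being 204, for Acss2 in a wild-type library. They are 30 of the 43346 genes listed in each library and of the 18055 genes that entered the tests. By role, 7 act between acetyl-CoA and farnesyl pyrophosphate, 11 between squalene and cholesterol, 7 in the control of SREBP, and 5 in fatty acid, acetate or sterol carrier steps.

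RNA was sequenced from mouse embryonic stem cells of a 129xC57BL/6 background, grown on gelatin in medium with serum and LIF, and reads were counted per gene. All 4 groups carry Rosa26Cre-ERT2/BirA-V5, and each has 2 libraries. The TRIM71 knockout is TRIM71-/-, and so lacks an RNA-binding protein of early embryonic cells. The mutant is homozygous for the Mbnl1 3'UTR(mut) allele, an altered 3' untranslated region of the gene of the splicing regulator MBNL1. The overexpression line carries a stable transfection of MBNL1::T2A::Puromycin. Wild type is the parental genotype without these changes. Whether the 2 libraries of a group came from separate clones or cultures is not in the labels, so the p-values speak for the spread among these libraries alone.

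Cholesterol is built from acetyl-CoA by way of mevalonate, farnesyl pyrophosphate, squalene and lanosterol. The transcription factors SREBP-1 and SREBP-2 are made as membrane proteins of the endoplasmic reticulum, where INSIG proteins hold SCAP and its SREBP cargo when sterols are plentiful. When sterols run low, SCAP carries SREBP to the Golgi, and proteases free a fragment that enters the nucleus and acts with NF-Y on the promoters of sterol and fatty acid genes.

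Promoter windows of RefSeq (GRCm38.p6), from 250 bases before to 50 after the annotated start, were given for 24 of the 30 genes. No window was given for Fdps, Fdft1, Sqle, Scd1, Scd2 and Stard4. In the first listed window of each gene, 3 motifs were searched on both strands. The core of the sterol regulatory element, TCACNCCAC, lay in the window of Hmgcs1 alone, 1 of 24 (4.17%), against 1.22% of 27025 genes with a window. The NF-Y box CCAAT, which reads ATTGG on the other strand, lay in 19 of 24 windows (79.2%), against 37.9% of all. The palindromic E-box CACGTG lay in 4 of 24 (16.7%), those of Hsd17b7, Sc5d, Scap and Insig1, against 7.24% of all. A match describes letters in a window and shows no binding. Only these letters in these windows were searched, so other forms of an element, or elements elsewhere, would be missed. The stretches below hold the match in capitals, 5′ to 3′ on the gene's own strand, and each lies outside the gene's extent in GENCODE M21. The first 4 show the sterol element and the E-boxes upstream of a start, and the others show the NF-Y box in genes of each role that are described below. In Fasn the box overlaps its own reverse complement.
Hmgcs1 sterol element, chr13:119690204-119690233, plus strand: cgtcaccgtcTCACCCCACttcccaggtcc
Hsd17b7 E-box, chr1:169969331-169969360, minus strand: ggacccttgtgtCACGTGgctccgcccctc
Sc5d E-box, chr9:42264381-42264410, minus strand: ctacgcggcgacCACGTGaccgccgcgacc
Insig1 E-box, chr5:28071299-28071328, plus strand: gctgggtgaggtCACGTGgctccggtggca
Mvk NF-Y box, chr5:114444190-114444219, plus strand: cttgaagttcccATTGGttaatgtttgacc
Pmvk NF-Y box, chr3:89454393-89454422, plus strand: aactcaggttggCCAATtcacagcatctag
Hsd17b7 NF-Y box, chr1:169969261-169969290, minus strand: tgccgagtcgcgATTGGcgggcctaacgcg
Ebp NF-Y box, chrX:8193550-8193579, minus strand: atccctgtactgATTGGttcgtcagattcg
Srebf2 NF-Y box, chr15:82147122-82147151, plus strand: cttcgcgcgccgATTGGctaatgcaagcct
Fasn NF-Y box, chr11:120824592-120824621, minus strand: cggcctcggtgtCCAATTGGtttcgatgtg

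Total counts ranged from 75056306 to 86508533 per library, so that 3 counts equal 0.0347 to 0.04 CPM, a unit that sets a gene's count against its library's total. Levels below are CPM after scaling by TMM, which evens out library composition. Trim71 stood at 101 and 105 CPM in the knockout libraries, against 630 and 628 CPM in wild type. Mbnl1 stood at 48.8 and 50.9 CPM in the knockout, 28.6 and 27.4 CPM in the mutant and 193 and 195 CPM in overexpression, against 25.9 and 26.1 CPM in wild type. In every library the embryonic stem cell markers were abundant, with Pou5f1 averaging 1169 CPM in knockout cells, 1243 in mutant cells, 1137 in overexpression and 1159 in wild type. The summed level of the 8 stem cell markers was 5218 and 5238 CPM in knockout cells, 4711 and 4709 in mutant cells, 4797 and 4858 in overexpression, and 4185 and 4177 in wild type, and 6 of the 8 were called higher in each altered line. Of 12 primitive endoderm markers, 10 were lower and 0 higher in the knockout (0 higher at an unadjusted p under 0.05, and 1 by DESeq2), 6 were higher in the mutant, and 7 were lower and 2 higher in overexpression. Their sum was 517 and 516 CPM in knockout cells, 748 and 934 in mutant cells, 579 and 544 in overexpression, and 613 and 638 in wild type. Feeder fibroblast markers summed to 16.5 and 16.9 CPM in knockout cells, 10.1 and 10.5 in mutant cells, 14.1 and 13.6 in overexpression, and 8.94 and 9.55 in wild type, with Postn, Lum and Dcn under 0.1 CPM in all. Trophoblast markers summed to 118 and 118 CPM, 55.3 and 62.2, 77 and 75.4, and 112 and 109 in the same order of groups, with Elf5 under 0.1 CPM in all. Of 6 trophoblast markers tested, 3 were higher and 3 lower in the knockout, 4 lower in the mutant and 5 lower in overexpression. Of 6 feeder markers tested, 4 were higher in the knockout, 2 higher and 2 lower in the mutant, and 3 higher and 3 lower in overexpression. The part of these marker shifts in the results below was not tested, and in bulk RNA fewer cells of a type and less RNA per cell cannot be told apart.

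In the TRIM71 knockout, 22 of the 30 genes rose against wild type and 0 fell, while 8 did not pass (edgeR's quasi-likelihood test, Benjamini-Hochberg adjusted p under 0.05 over all tested genes). Among all tested genes, 44.8% were called in this comparison, 24.1% higher and 20.7% lower. The median log2 fold change was 0.25 over the 30 genes and -0.01 over all tested genes. At an unadjusted p under 0.05, 23 were higher and 4 lower, and DESeq2 called 21 higher and 0 lower. In 11 of the 22 the higher group stood at least 25% above the lower, a size that 14% of all tested genes reached upward and 11.2% downward. The called genes were 11 of 11 between squalene and cholesterol, 5 of 7 of the earlier pathway, 4 of 5 of the fatty acid, acetate and carrier genes, and 2 of 7 of the SREBP control genes. The call held in each of 16 alternative settings for 18 of the 22. It was lost in at least 1 setting for Fdps, Lss, Stard4 and Tm7sf2. Of the 8 that did not pass, 6 were called in at least 1 setting: Fasn, Hmgcs1, Mbtps1, Mbtps2, Scap and Srebf2.

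In Mbnl1 overexpression, 10 genes rose, 10 fell and 10 did not pass, where 54.8% of all tested genes were called, 27.7% higher and 27.1% lower. The median log2 fold change of the 30 was 0.02, and that of all tested genes -0.01. Upward changes were the larger ones: 7 of the 10 reached the 25% difference (18.7% of all tested genes did), against 1 of the 10 that fell (15.3% of all). All 10 rises held in the 16 alternative settings, and 7 of the 10 falls did. Of the 10 that did not pass, Fasn, Fdft1, Insig2, Mvd and Srebf2 were called in at least 1 setting. In the 3'UTR mutant, 5 genes rose, Hmgcs1, Ebp, Fasn, Scd1 and Scd2, and 0 fell (10 higher and 1 lower at an unadjusted p under 0.05, and 5 and 0 by DESeq2). Ebp, Fasn and Scd2 held in all 16 settings, Hmgcs1 and Scd1 did not, and only 3 genes were called higher without wild-type replicate 1, wild-type replicate 2 or mutant replicate 1. Of the 25 that did not pass, Cyp51, Mbtps2, Nsdhl, Pmvk, Srebf2 and Tm7sf2 were called in at least 1 setting. Of all tested genes 15.5% were called there, 8.02% higher and 7.5% lower. Among these 5 only Fasn reached the 25% difference, a size reached by 2.58% of all tested genes upward and 4.55% downward. The median log2 fold change of the 30 genes in the mutant was 0.04, and that of all tested genes was -0.01. The 3 comparisons share the wild-type libraries, so their values are given side by side below and not as independent results.

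**Figure D1:**
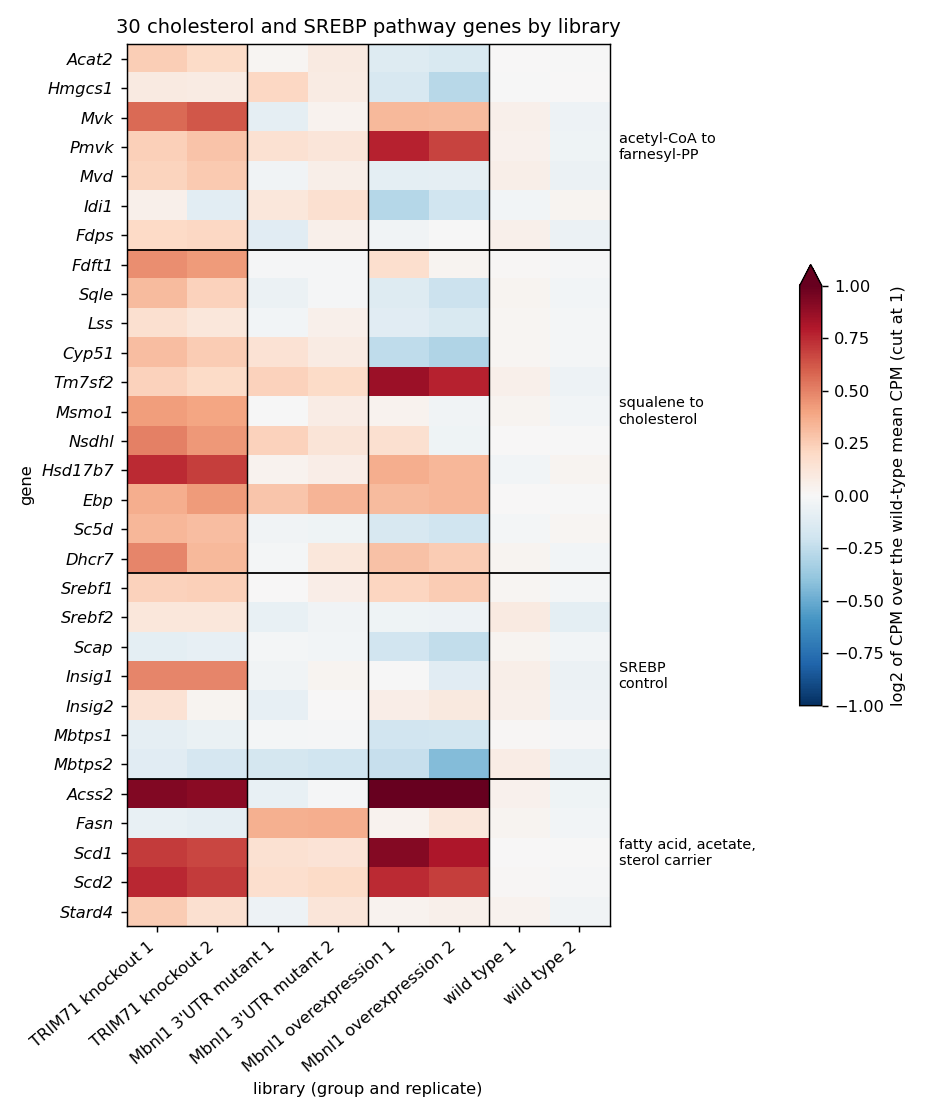
Each row is 1 of the 30 genes and each column 1 of the 8 libraries; colour gives the log2 of its CPM over the wild-type mean, with values above 1 drawn at the end of the scale, and lines part the groups and roles. The knockout columns are mainly red, the mutant columns pale, and the overexpression columns mixed, with Acss2, Scd1, Scd2, Tm7sf2 and Pmvk darkest.

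The mevalonate segment begins with Acat2 (acetoacetyl-CoA thiolase) and Hmgcs1 (HMG-CoA synthase). Its later enzymes are Mvk and Pmvk (mevalonate and phosphomevalonate kinases), Mvd (diphosphomevalonate decarboxylase), Idi1 (isopentenyl diphosphate isomerase) and Fdps (farnesyl diphosphate synthase). Summed over these 7 genes, the level was 732 and 728 CPM in knockout cells, 708 and 695 in mutant cells, 635 and 610 in overexpression, and 663 and 652 in wild type. Hmgcs1 makes up much of that sum, with 363 and 362 CPM in knockout cells, 395 and 362 in mutant cells, 306 and 282 in overexpression, and 341 and 344 in wild type. The overexpression libraries were the lowest for Hmgcs1, and the knockout libraries lay only slightly above wild type. Its log2 fold change was 0.08 in the knockout (adjusted p = 0.137, not passing), 0.14 in the mutant (adjusted p = 0.0381) and -0.22 in overexpression (adjusted p = 0.000633). The mutant call for Hmgcs1 was lost in 5 settings that left out 1 library and in 2 others, with a log2 fold change of 0.08 without mutant replicate 1 (adjusted p = 0.267).

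Mvk (ENSMUSG00000041939.10, chr5:114444269-114460591, plus strand) stood at 23.3 and 24.2 CPM in knockout cells, 14.8 and 16.1 in mutant cells, 19.7 and 19.6 in overexpression, and 16.3 and 15.2 in wild type. Knockout libraries were highest and overexpression libraries next, both clear of wild type, while mutant and wild type overlapped. It rose 1.51-fold in the knockout (log2 0.59, SE 0.0568, adjusted p = 6.89e-07) and less in overexpression (log2 0.32, SE 0.0573, adjusted p = 0.000205), and the mutant log2 change was -0.03 (adjusted p = 0.827). Pmvk (ENSMUSG00000027952.12, chr3:89454541-89469013, plus strand) had 46.1 and 47.6 CPM in knockout cells, 43.3 and 42.4 in mutant cells, 66.4 and 62.5 in overexpression, and 40.2 and 37.9 in wild type. Here the order was the other way round, with overexpression above the knockout and every altered library above both wild-type ones. Pmvk rose 1.2-fold in the knockout (log2 0.26, SE 0.0453, adjusted p = 0.000226) and 1.65-fold in overexpression (log2 0.72, SE 0.0449, adjusted p = 2.94e-09). Its log2 change of 0.13 in the mutant did not pass (adjusted p = 0.0587). In the direct test, Pmvk was lower in the knockout than in overexpression (log2 -0.46, adjusted p = 3.93e-07), whereas Mvk was higher (log2 0.27, adjusted p = 0.000624).

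The remaining enzymes of this segment changed less. In the knockout Acat2, Mvd and Fdps rose 1.16-fold, 1.18-fold and 1.15-fold, and Idi1 stood at a log2 change of -0.03 (adjusted p = 0.736). In overexpression Acat2 fell by 0.14 and Idi1 fell by 0.24 on the log2 scale, while Mvd (log2 -0.09, adjusted p = 0.11) and Fdps (log2 -0.02, adjusted p = 0.787) did not pass. There, genes within 10 Mb had a median log2 change of -0.09 around Acat2 and -0.14 around Idi1. Less these medians, the changes were -0.05 for Acat2 and -0.11 for Idi1. Fdps lost its knockout call without wild-type replicate 2 (adjusted p = 0.0511), and Acat2 lost its overexpression call without overexpression replicate 2 (adjusted p = 0.0518) and with scaling by library size only (adjusted p = 0.0728). Some of their reads can belong to other genes: 33.9% of the 75-base words in Acat2 transcripts also occur in other annotated transcripts, among them those of Acat3, and 23.6% of those of Idi1 and 23.5% of those of Fdps do.

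**Figure D2:**
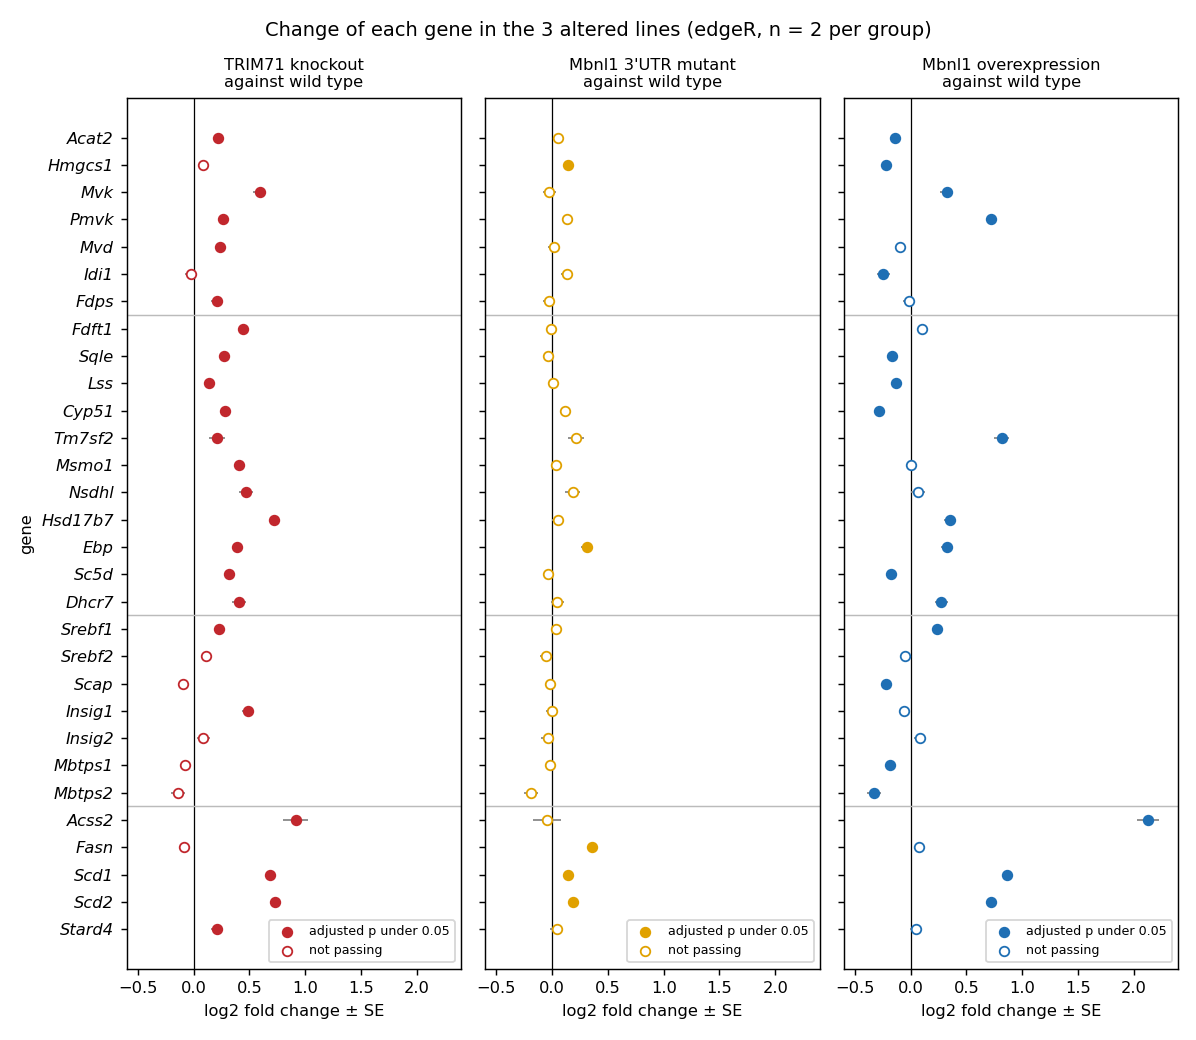
Points give the log2 fold change of each gene (rows, in pathway order) in the knockout, the mutant and overexpression against wild type, bars its SE from edgeR with 2 libraries per group, and filled points an adjusted p under 0.05. No filled point lies below 0 in the knockout or the mutant, whereas 10 do in overexpression.

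All 11 genes between squalene and cholesterol rose in the knockout, by 0.14 to 0.72 on the log2 scale with a median of 0.39. In overexpression 4 of the 11 rose and 4 fell (27.7% and 27.1% of all tested genes), and in the mutant 1 rose (8.02% of all). Their summed level was 794 and 767 CPM in knockout cells, 625 and 637 in mutant cells, 618 and 587 in overexpression, and 621 and 605 in wild type, with the knockout libraries far above the others. Hsd17b7, a keto-sterol reductase (ENSMUSG00000026675.8, chr1:169949535-169969241, minus strand), had the largest rise of the 11 in the knockout. It stood at 33.1 and 31.8 CPM in knockout cells, 20.2 and 20.6 in mutant cells, 25.3 and 24.9 in overexpression, and 19.3 and 20.1 in wild type. The knockout and overexpression libraries were both clear of wild type, with the knockout above overexpression. The rise was 1.65-fold in the knockout (log2 0.72, SE 0.0471, adjusted p = 1.18e-08) and 1.27-fold in overexpression (log2 0.35, SE 0.0477, adjusted p = 1.63e-05). In the mutant the log2 change was 0.05 (adjusted p = 0.549).

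Nsdhl, a sterol dehydrogenase (ENSMUSG00000031349.4, chrX:72918557-72958514, plus strand), had 31.7 and 30.1 CPM in knockout cells, 26.2 and 24.4 in mutant cells, 25 and 21.6 in overexpression, and 22.4 and 22.2 in wild type. Only overexpression overlapped wild type. Nsdhl rose 1.38-fold in knockout cells (log2 0.47, SE 0.0627, adjusted p = 2.2e-05), with log2 changes of 0.18 in the mutant (adjusted p = 0.0672) and 0.06 in overexpression (adjusted p = 0.429). Fdft1, squalene synthase, which commits farnesyl pyrophosphate to sterols (ENSMUSG00000021273.9, chr14:63145150-63179578, minus strand), had 134 and 130 CPM in knockout cells, 96.2 and 96 in mutant cells, 109 and 98.9 in overexpression, and 97.7 and 96 in wild type. The knockout libraries of Fdft1 stood above all others. Its log2 changes were 0.45 in the knockout (1.36-fold, SE 0.0425, adjusted p = 6.72e-07), -0.01 in the mutant (adjusted p = 0.906) and 0.10 in overexpression (adjusted p = 0.0626). The overexpression value was called higher in 4 settings, among them 0.17 without overexpression replicate 2 (adjusted p = 0.0087) and 0.15 with scaling by library size only (adjusted p = 0.00887). Of its 75-base words, 21.8% also occur in transcripts of other genes, mainly Ctsb on the opposite strand.

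Dhcr7, the reductase of the final step to cholesterol (ENSMUSG00000058454.10, chr7:143823145-143848410, plus strand), had 28.8 and 25.8 CPM in knockout cells, 20.3 and 22.2 in mutant cells, 25.2 and 24.6 in overexpression, and 20.9 and 20.2 in wild type. The knockout and overexpression libraries lay above wild type, and the mutant overlapped it. Dhcr7 rose 1.33-fold in the knockout (log2 0.41, SE 0.0599, adjusted p = 5.16e-05) and 1.21-fold in overexpression (log2 0.27, SE 0.0601, adjusted p = 0.00116), with a mutant log2 change of 0.05 (adjusted p = 0.674). Msmo1, a sterol methyl oxidase (ENSMUSG00000031604.6, chr8:64718139-64733792, minus strand), had 174 and 171 CPM in knockout cells, 130 and 137 in mutant cells, 133 and 127 in overexpression, and 133 and 127 in wild type. Outside the knockout its values could not be parted by group. It rose 1.33-fold in the knockout (log2 0.41, SE 0.0399, adjusted p = 8.55e-07), against log2 changes of 0.04 in the mutant (adjusted p = 0.597) and -0.00 in overexpression (adjusted p = 0.98).

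Ebp, a sterol isomerase (ENSMUSG00000031168.10, chrX:8185329-8193512, minus strand), was raised in every altered line. It had 23.9 and 24.9 CPM in knockout cells, 22.5 and 23.5 in mutant cells, 23.1 and 23.3 in overexpression, and 18.6 and 18.5 in wild type. All 6 libraries of the altered lines lay above both wild-type libraries. The log2 changes were 0.39 in the knockout (SE 0.0486, adjusted p = 9.64e-06), 0.31 in the mutant (SE 0.0488, adjusted p = 0.00045) and 0.32 in overexpression (SE 0.0486, adjusted p = 4.22e-05). Tm7sf2, a sterol reductase whose reaction the lamin B receptor can also carry out (ENSMUSG00000024799.10, chr19:6062821-6068373, minus strand), had 7.93 and 7.73 CPM in knockout cells, 7.94 and 7.73 in mutant cells, 12.2 and 11.5 in overexpression, and 6.99 and 6.52 in wild type. Overexpression stood far above the other groups. Its rise there was 1.76-fold (log2 0.82, SE 0.0673, adjusted p = 7.25e-08), and the median of 261 genes within 10 Mb of it was 0.11. The knockout call (log2 0.21, adjusted p = 0.0242) was lost in DESeq2 (adjusted p = 0.0841) and without knockout replicate 1, knockout replicate 2 or wild-type replicate 2 (adjusted p = 0.116, 0.0677 and 0.148). The mutant value of 0.21 did not pass (adjusted p = 0.0567). Exons of Vps51 on the same strand share 8.83% of the 75-base words of Tm7sf2.

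The other 4 genes of this segment rose in the knockout and fell in overexpression. They are Sqle (squalene epoxidase), Lss (lanosterol synthase), Cyp51 (lanosterol demethylase) and Sc5d (a sterol desaturase). Cyp51 had 116 and 112 CPM in knockout cells, 104 and 99.6 in mutant cells, 78.6 and 76.1 in overexpression, and 95.5 and 92.6 in wild type. No library of one group overlapped with another for Cyp51, and the order was knockout, mutant, wild type and overexpression from high to low. Its log2 changes were 0.28 in the knockout (adjusted p = 2.59e-05), 0.11 in the mutant (adjusted p = 0.0623) and -0.28 in overexpression (adjusted p = 1.84e-05). Sc5d moved by 0.32 in the knockout (adjusted p = 1.88e-05) and -0.18 in overexpression (adjusted p = 0.00221), Sqle by 0.27 (adjusted p = 8.71e-05) and -0.17 (adjusted p = 0.003), and Lss by 0.14 (adjusted p = 0.0108) and -0.13 (adjusted p = 0.011). The 65 genes within 10 Mb of Sqle had a median log2 change of -0.20 in overexpression, and less that median the change of Sqle was 0.029. Lss lost its knockout call without wild-type replicate 2 or knockout replicate 1 (adjusted p = 0.0763 and 0.105). In overexpression, Lss lost its call without overexpression replicate 2 or wild-type replicate 1 (adjusted p = 0.101 and 0.0856) and with scaling by library size only (adjusted p = 0.125), and Sqle without overexpression replicate 2 (adjusted p = 0.0597).

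**Figure D3:**
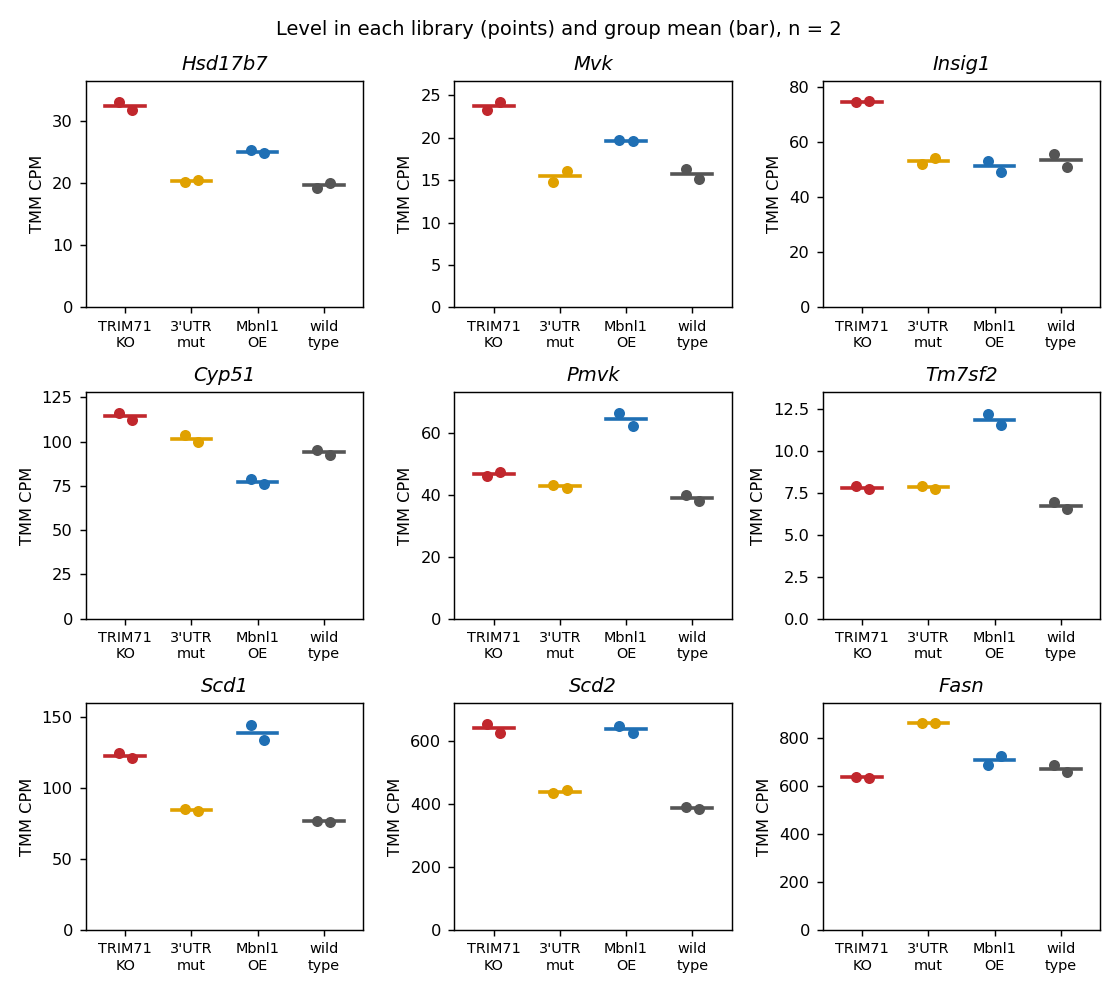
Points give the CPM of each library and bars the group mean (n = 2, axes from 0) of 9 genes in the knockout, the mutant, overexpression and wild type. Hsd17b7, Mvk and Insig1 are highest in the knockout, Pmvk, Tm7sf2 and Scd1 in overexpression and Fasn in the mutant, while Cyp51 is lowest in overexpression.

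The SREBP control genes changed least as a group in the knockout and the mutant. In overexpression 42.9% of them fell, the same share as in the mevalonate segment. Of all tested genes, 24.1% were called higher in the knockout, and 27.7% higher and 27.1% lower in overexpression. In the knockout 2 of 7 rose, Insig1 and Srebf1; in overexpression Srebf1 rose while Scap, Mbtps1 and Mbtps2 fell; in the mutant 0 were called by edgeR or DESeq2, with 1 lower at an unadjusted p under 0.05. Insig1 (ENSMUSG00000045294.10, chr5:28071363-28078662, plus strand) encodes a retention factor of SCAP and is itself an SREBP target. It stood at 74.7 and 74.9 CPM in knockout cells, 52.1 and 54.4 in mutant cells, 53.3 and 49.3 in overexpression, and 55.6 and 51.2 in wild type. Both knockout libraries lay well above the rest, which overlapped. Insig1 rose 1.4-fold in the knockout (log2 0.49, SE 0.0484, adjusted p = 1.06e-06), and stood at log2 changes of -0.00 in the mutant (adjusted p = 0.971) and -0.06 in overexpression (adjusted p = 0.351). Insig2 (ENSMUSG00000003721.10, chr1:121304353-121332589, minus strand), its relative, had 25.5 and 23.4 CPM in knockout cells, 21.7 and 23.1 in mutant cells, 24.2 and 24.7 in overexpression, and 23.8 and 22.2 in wild type. No comparison with wild type passed for Insig2, with log2 changes of 0.09, -0.04 and 0.09 in the knockout, mutant and overexpression (adjusted p = 0.216, 0.712 and 0.212).

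Srebf1 (ENSMUSG00000020538.11, chr11:60199089-60222581, minus strand), the gene of SREBP-1, which favours fatty acid genes, had 69 and 69.4 CPM in knockout cells, 59 and 61.6 in mutant cells, 68.4 and 70.1 in overexpression, and 59.8 and 58 in wild type. The knockout and overexpression libraries were level with each other and above wild type. Srebf1 rose 1.17-fold in the knockout (log2 0.23, SE 0.039, adjusted p = 0.000178) and 1.18-fold in overexpression (log2 0.23, SE 0.0389, adjusted p = 0.000112), with a mutant log2 change of 0.03 (adjusted p = 0.629). Srebf2 (ENSMUSG00000022463.7, chr15:82147181-82205379, plus strand), the gene of SREBP-2, which favours sterol genes, had 141 and 141 CPM in knockout cells, 123 and 127 in mutant cells, 126 and 125 in overexpression, and 139 and 122 in wild type. Of the wild-type libraries of Srebf2, the higher stood 14.2% above the lower. No comparison with wild type passed, with log2 changes of 0.11, -0.06 and -0.05 in the knockout, mutant and overexpression (SE 0.0491, 0.0492 and 0.0491, adjusted p = 0.0744, 0.519 and 0.422). The calls for Srebf2 changed with the wild-type library left out: without wild-type replicate 1 the knockout change was 0.21 (adjusted p = 0.00116), and without wild-type replicate 2 the overexpression change was -0.14 (adjusted p = 0.0117) and the mutant change -0.15 (adjusted p = 0.0332). With all libraries and scaling by library size only, the knockout change was 0.12 (adjusted p = 0.0379).

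Scap (ENSMUSG00000032485.10, chr9:110333288-110384950, plus strand), the escort of SREBP, had 42.4 and 43 CPM in knockout cells, 45 and 44.8 in mutant cells, 39.9 and 38.5 in overexpression, and 46.5 and 44.6 in wild type. Overexpression was the lowest group. Scap fell by 0.22 on the log2 scale there (SE 0.0413, adjusted p = 0.000363), and stood at -0.09 in the knockout (adjusted p = 0.082) and -0.02 in the mutant (adjusted p = 0.805). The Golgi proteases that cut SREBP, Mbtps1 and Mbtps2, fell by 0.19 and by 0.33 in overexpression (adjusted p = 0.000127 and 0.000455). In the knockout they stood at -0.08 and -0.14 (adjusted p = 0.0587 and 0.0806), and in the mutant at -0.01 and -0.19 (adjusted p = 0.82 and 0.0621). The knockout values were close to the threshold, and when the fit held only the knockout and wild-type libraries both were called lower (adjusted p = 0.0401 and 0.0376). In overexpression, genes within 10 Mb had a median log2 change of 0.01 around Mbtps1 and -0.19 around Mbtps2. Less these medians, the changes were -0.20 for Mbtps1 and -0.14 for Mbtps2. Yy2 lies within Mbtps2 on the same strand, and 27.7% of the 75-base words of Mbtps2 also occur in Yy2 or other genes.

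Among the fatty acid, acetate and carrier genes, 4 of 5 rose in the knockout, 3 of 5 in overexpression and 3 of 5 in the mutant, and 0 fell in any of them (1 lower at an unadjusted p under 0.05 in the knockout and 0 in the others, and 0 by DESeq2 in all). Of all tested genes, 24.1% rose in the knockout, 27.7% in overexpression and 8.02% in the mutant. Scd1 (ENSMUSG00000037071.2, chr19:44394455-44407879, minus strand) and Scd2 (ENSMUSG00000025203.5, chr19:44293674-44306864, plus strand) encode stearoyl-CoA desaturases, which make monounsaturated fatty acids. Scd1 had 124 and 121 CPM in knockout cells, 84.9 and 83.9 in mutant cells, 144 and 133 in overexpression, and 76.5 and 76.1 in wild type. Scd2 had 653 and 627 CPM in knockout cells, 436 and 443 in mutant cells, 649 and 624 in overexpression, and 390 and 384 in wild type. For both genes every altered library exceeded both wild-type libraries, with the mutant close above wild type and the other lines far above it.

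In the knockout Scd1 rose 1.61-fold (log2 0.68, SE 0.0406, adjusted p = 4.09e-09) and Scd2 1.65-fold (log2 0.73, SE 0.0346, adjusted p = 4.2e-10). Overexpression gave 1.82-fold for Scd1 (log2 0.86, SE 0.0405, adjusted p = 1.35e-10) and 1.65-fold for Scd2 (log2 0.72, SE 0.0346, adjusted p = 1.76e-10). In the mutant the log2 changes were 0.15 for Scd1 (adjusted p = 0.0243) and 0.18 for Scd2 (adjusted p = 0.00177). The mutant call of Scd1 was lost without wild-type replicate 1, wild-type replicate 2 or mutant replicate 1 (adjusted p = 0.0821, 0.0904 and 0.0747), with scaling by library size only (adjusted p = 0.0551) and with only the 2 groups compared (adjusted p = 0.0515), that of Scd2 in none of the 16 settings. The paralogs share 3.15% of the 75-base words of Scd1 and 1.78% of those of Scd2 with each other or with other Scd loci. Scd1 was lower in the knockout than in overexpression (log2 -0.18, adjusted p = 0.0013), and Scd2 did not differ beyond its spread between them (log2 0.01, adjusted p = 0.868).

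Fasn, fatty acid synthase (ENSMUSG00000025153.8, chr11:120805846-120824547, minus strand), took another course. It had 638 and 633 CPM in knockout cells, 861 and 863 in mutant cells, 688 and 726 in overexpression, and 687 and 658 in wild type. The mutant libraries stood above all others, and the knockout libraries below all others. Fasn rose 1.28-fold in the mutant (log2 0.36, SE 0.0352, adjusted p = 5.51e-06), with log2 changes of -0.08 in the knockout (adjusted p = 0.0719) and 0.07 in overexpression (adjusted p = 0.0943). The knockout value was called lower in 4 of 16 settings, with the fit restricted to knockout and wild type giving an adjusted p of 0.0307. Scaling by library size only gave Fasn 0.13 in overexpression (adjusted p = 0.00306), and leaving out overexpression replicate 1 gave 0.12 (adjusted p = 0.027). In direct tests Fasn was lower in the knockout than in the mutant (log2 -0.44, adjusted p = 9.65e-08) and lower in overexpression than in the mutant (log2 -0.29, adjusted p = 7.08e-06). Stard4, a cytosolic sterol carrier (ENSMUSG00000024378.5), rose 1.16-fold in the knockout (log2 0.21, adjusted p = 0.00523) and stood at 0.04 in the mutant and 0.04 in overexpression (adjusted p = 0.702 and 0.523). Its knockout call was lost without wild-type replicate 2 or knockout replicate 1 (adjusted p = 0.0524 and 0.0747).

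Acss2 (ENSMUSG00000027605.14, chr2:155517948-155585724, plus strand) encodes acetyl-CoA synthetase, which turns acetate into acetyl-CoA, and had the largest change of the 30 genes. It stood at 5.29 and 5.21 CPM in knockout cells, 2.65 and 2.76 in mutant cells, 13.3 and 11.1 in overexpression, and 2.86 and 2.71 in wild type. Overexpression was highest and the knockout next, both far from wild type, which overlapped with the mutant. The rise was 4.38-fold in overexpression (log2 2.13, SE 0.0987, adjusted p = 1.17e-10) and 1.88-fold in the knockout (log2 0.91, SE 0.111, adjusted p = 8.37e-06), with a mutant log2 change of -0.04 (adjusted p = 0.875). The higher overexpression library stood 20.1% above the lower, the widest replicate gap among the 120 pairs of libraries of these genes, whose median gap was 3.71%.

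In overexpression the genes around Acss2 were raised with it. Of 267 tested genes within 10 Mb on chromosome 2, 68.2% were called higher, and their median log2 change was 0.49. Around each of the other genes the same median lay between -0.20 and 0.15. Less its neighbours' median, the change of Acss2 in overexpression was 1.64. Within 0.5 Mb, 19 of 25 genes were called higher with a median of 0.58, among them Myh7b, a myosin heavy chain gene beside Acss2, at 2.22. Ggt7 and Gss, which overlap Acss2 on the opposite strand, stood at 0.98 and 0.67. Within 10 Mb, 10 other genes were higher by as much as Acss2 or more, and 2, Foxa2 and Insm1, were lower by as much (log2 -2.57 and -2.53). Of the 10, Nol4l, Myh7b, Tgm2 and Slc32a1 stood at 16.9, 9.43, 105 and 2.17 CPM in overexpression. The rest had few reads, from 0.147 CPM for Vsx1 to 1.74 CPM for Platr15 there. Foxa2 and Insm1 were also low, at 3.6 and 0.597 CPM in wild type. These genes near Acss2 were named after their values were seen. The part of this region in the change of Acss2 was not tested. The knockout showed no such shift: neighbours had a median of -0.01 there, and 21% were called higher.

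**Figure D4:**
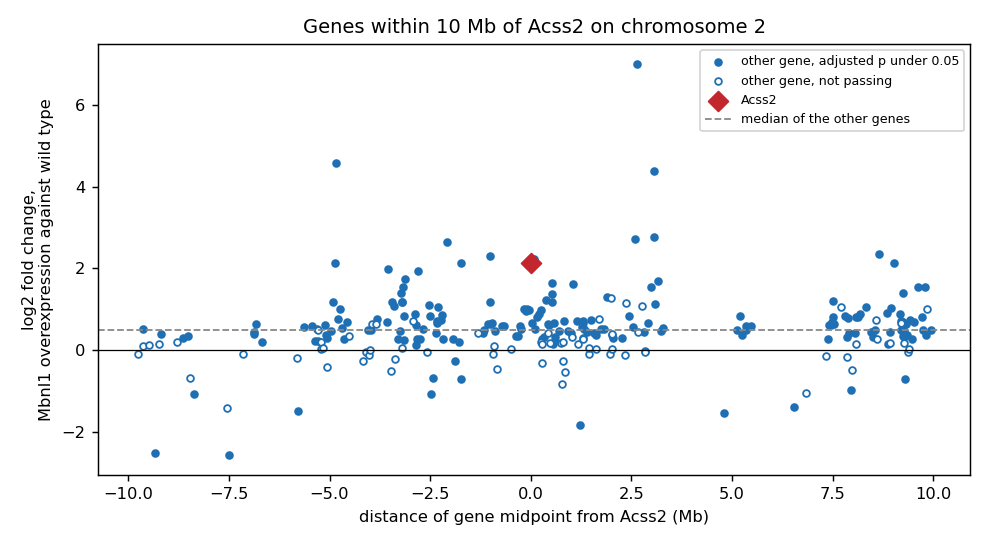
Points give the log2 fold change in overexpression against wild type of tested genes by the distance of their midpoint from Acss2 (diamond) in Mb, filled where the adjusted p is under 0.05. Most points lie above 0, around the dashed median of 0.49, and Acss2 at 2.13 is far above it.

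Tests between the altered lines do not use the wild-type libraries in the difference. Between the knockout and overexpression, 20 of 30 genes were higher in the knockout, 5 lower and 5 did not pass, where 54.8% of all tested genes were called, 27.5% higher and 27.3% lower. The 5 lower in the knockout were Pmvk, Tm7sf2, Acss2, Fasn and Scd1. Of the 18 enzymes from Acat2 to Dhcr7, 14 were higher in the knockout and 2 lower, with a median log2 difference of 0.32, and Cyp51 had the highest (log2 0.56, adjusted p = 9.27e-09). With a difference of 25% or more, 10 of the 30 were higher and 3 lower, against 15.8% and 17.9% of all tested genes. In the comparison of the knockout with the mutant, 21 were higher and 2 lower, Idi1 and Fasn, where 45.5% of all tested genes were called, 24.4% higher and 21.1% lower. At that size 10 were higher and 1 lower, against 15.1% and 9.84% of all. Overexpression against the mutant gave 10 higher and 10 lower, where 52% were called, 26.8% higher and 25.2% lower, and at that size 6 higher and 3 lower, against 18.4% and 11.6% of all.

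By mean level, the knockout was the highest group for 19 of the 30 genes and the lowest for 1, Fasn, where it was highest for 26.7% and lowest for 28% of all tested genes. Overexpression was the highest for 5 and the lowest for 13 (32.6% and 32.8% of all tested genes). The mutant was highest for 3 and lowest for 6 (18.4% and 18.4% of all), and wild type highest for 3 and lowest for 10 (22.3% and 20.8% of all).

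Per kb of merged exon length, the wild-type levels of the 30 genes ranged widely. Merged length counts the exons of every annotated transcript, 10.2 kb for Acss2 and 4.4 kb for Tm7sf2. The transcripts in use can be shorter, so genes compare only roughly. Hmgcs1 had 74.5 ± 0.488, Scd2 70.8 ± 0.689 and Fasn 61.4 ± 1.84 CPM per kb (SD, n = 2), and the next was Acat2 at 31.2 ± 0.229. At the low end Tm7sf2 had 1.54 ± 0.0753 and Acss2 0.274 ± 0.011 CPM per kb. Of the regulators, Srebf2 had 18.1 ± 1.7, Insig1 17.3 ± 1.02, Srebf1 10.4 ± 0.228, Insig2 6.63 ± 0.314 and Scap 6.12 ± 0.184 CPM per kb. On this scale Srebf2 and Insig1 did not differ beyond their spread, while Srebf1 lay below both.

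Other genes of the pathways were counted from 5 lists. Of all tested genes, 24.1% were called higher and 20.7% lower in the knockout, and 27.7% and 27.1% in overexpression. In the mutant 8.02% were called higher and 7.5% lower. A count near these shares is no result about its list. Of 15 further fatty acid genes, 7 rose and 5 fell in the knockout, 3 rose and 1 fell in the mutant, and 8 rose and 3 fell in overexpression, with medians of 0.08, 0.03 and 0.12 on the log2 scale. The desaturase gene Fads1 had 59.8 and 58 CPM in the knockout and 62.9 and 58.8 in overexpression, against 41.2 and 40.4 in wild type, a rise of 0.53 in the knockout (adjusted p = 1.1e-07) and of 0.58 in overexpression (adjusted p = 2.16e-08). Its partner Fads2 rose in each altered line, by 0.43 in knockout cells, 0.23 in mutant cells and 0.65 in overexpression. Elovl6, an elongase, fell in the knockout (log2 -0.32, adjusted p = 6.53e-06) and rose in the mutant (log2 0.32, adjusted p = 2.71e-05). Acsl4, an arachidonate-preferring acyl-CoA synthetase, fell in all 3 lines, by 0.34 in knockout cells, 0.29 in mutant cells and 0.56 in overexpression. Of 14 genes of the isoprenoid branches, which use farnesyl pyrophosphate for other products, 2 rose and 4 fell in the knockout, 0 rose and 1 fell in the mutant (0 and 2 at an unadjusted p under 0.05, 0 and 1 by DESeq2), and 3 rose and 4 fell in overexpression. Their medians were -0.01, -0.03 and -0.03. In the knockout Rabggta, a Rab prenyltransferase subunit gene, rose by 0.26 and Coq2, for coenzyme Q synthesis, fell by 0.44. Fnta, a farnesyltransferase subunit gene, fell by 0.17 in the mutant. In overexpression Dhdds, for dolichol synthesis, rose by 0.40 and Fntb, the other farnesyltransferase subunit gene, fell by 0.52.

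Of 14 genes for SREBP transport and for the turnover of INSIG and SREBP, 4 rose and 2 fell in knockout cells, 2 and 1 in mutant cells, and 3 and 5 in overexpression. In the knockout this is 28.6% and 14.3%, against 24.1% and 20.7% of all tested genes. In the mutant it is 14.3% and 7.14%, against 8.02% and 7.5% of all. In overexpression it is 21.4% and 35.7%, against 27.7% and 27.1% of all. Pgrmc1, a membrane protein that binds INSIG1 and SCAP, had 91.7 and 92.1 CPM in knockout cells, 42.9 and 41 in mutant cells and 45.5 and 48.7 in overexpression, against 50.5 and 49.7 in wild type. Its knockout libraries were nearly level with each other and far above all others, a rise of 0.88 on the log2 scale (adjusted p = 4.5e-10), and it fell by 0.26 in the mutant (adjusted p = 0.000713). The erlins form a scaffold for protein degradation in the endoplasmic reticulum: Erlin1 fell by 0.25 in the knockout, Erlin2 rose by 0.12 in the mutant, and in overexpression the coat protein gene Sec24d fell by 0.45. Of 13 genes of sterol transport and esterification, 6 rose and 4 fell in knockout cells, 2 and 1 in mutant cells, and 4 and 5 in overexpression. Lipa, the lysosomal lipase that frees cholesterol from its esters, had 11 and 10.9 CPM in knockout cells, 3.89 and 4.36 in mutant cells and 3.94 and 3.19 in overexpression, against 4.14 and 4.27 in wild type. The knockout rise was 1.38 on the log2 scale (adjusted p = 1.13e-08), while Gramd1b, a sterol transporter, fell by 0.35. Soat1, which esterifies cholesterol, fell by 0.25 in knockout cells, 0.22 in mutant cells and 0.64 in overexpression, and the sterol transporter gene Gramd1a rose by 0.32, 0.40 and 0.84.

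Of 13 genes of the LXR and oxysterol response 12 were tested, and Ch25h did not pass the filter on low counts. Of all tested genes, 27.7% were higher and 27.1% lower in overexpression, 24.1% and 20.7% in the knockout, and 8.02% and 7.5% in the mutant. In overexpression 8 of the 12 rose and 0 fell (1 lower at an unadjusted p under 0.05, and 0 by DESeq2), with a median of 0.39. In the knockout 5 rose and 0 fell (0 lower at an unadjusted p under 0.05 and 0 by DESeq2, median 0.17), and in the mutant 1 rose, Abca1, and 0 fell (2 lower at an unadjusted p under 0.05, and 0 by DESeq2, median 0.00). Abca1, the cholesterol exporter, had 83.2 and 83.2 CPM in knockout cells, 110 and 108 in mutant cells and 87 and 92.4 in overexpression, against 74 and 70.8 in wild type, so it was highest in the mutant (log2 0.59, adjusted p = 1.39e-07). Rxra, a partner receptor of LXR, rose by 0.72 in the knockout and 0.79 in overexpression. Ncoa6, a coactivator, rose by 0.94 in overexpression, and it lies in the raised region near Acss2.

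**Figure D5:**
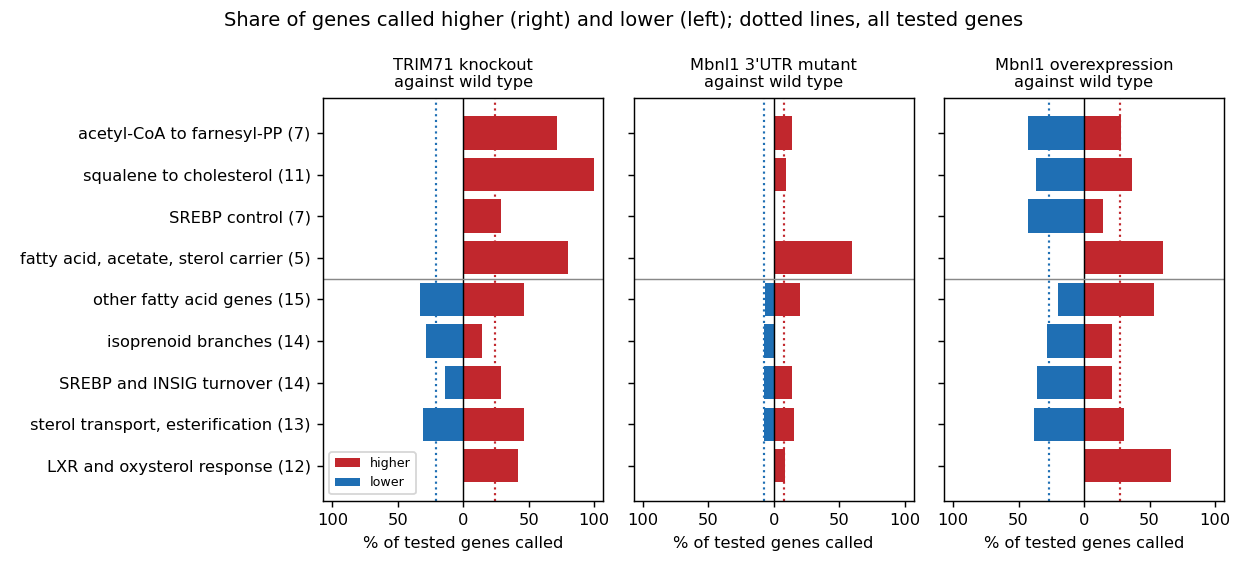
Bars give the percentage of tested genes called higher (right) and lower (left) in the knockout, the mutant and overexpression against wild type, for the 4 roles (above the line) and 5 other lists (below it), with list sizes in brackets and dotted lines for all tested genes. The squalene to cholesterol role reaches 100% higher in the knockout. In the knockout and overexpression the lists below the line mix both directions except the LXR list.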

How the data were processed

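Total RNA of 8 libraries was sequenced with a stranded kit and 75 nt paired-end reads, per the labels' protocols. Per the submitters' processing notes, STAR 2.5.0 was used on mm10, with the annotation release and the strand setting of counting not given in the sources used here. The deposited files hold raw read counts per gene for 43346 genes, of which 42462 were matched by identifier without version to GENCODE M21 symbols and coordinates and 884 were not. Reads of overlapping genes or close copies can be assigned to either, which was gauged by 75-base words shared between annotated transcripts.

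All 30 members and the lists of other genes were chosen with earlier results of these data known. Full statistics are given for the 14 members with the largest called change against wild type, of 25% or more, and for the SREBP regulators. From each other list, the called gene with the largest rise and fall per comparison is named, save 1 that is not reported here. Counts were scaled by TMM in edgeR 4.0.16 (R 4.3.3). filterByExpr (minimum count 10, total 15) left 18055 genes. A robust quasi-likelihood fit covered all 4 groups together (4 residual degrees of freedom, biological coefficient of variation 4.172%) and 6 contrasts were tested, with p-values adjusted by Benjamini-Hochberg over all tested genes at 0.05. With 2 libraries in each group, the smallest two-sided p of an exact permutation test is 0.333. The procedure was tested on data simulated for the knockout against wild type over 18055 genes, with few genes changed in each of several runs. Of 250 genes at each size, pooled over runs, the share recovered was 46.8% at 1.25-fold, 70.4% at 1.5-fold, 77.2% at 2-fold and 90.4% at 4-fold. Of the calls, 40 of 752 (5.32%) were false. In the real comparison 44.8% of genes were called, so these shares do not carry over to it. Libraries with the same replicate number did not deviate together (Pearson r of -0.0343 to 0.06 across genes between groups), so numbers were not used as pairs. Alternatives were median-ratio scaling, library size only, DESeq2 1.42.0, 3 other filters, fits of the 2 groups compared, a replicate block, each library left out, a minimum difference of 25%, and fold changes less the median of neighbours within 10 Mb.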

Additional observations from a re-analysis of the deposited data

How the results depend on the processing

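A minimum difference of 25% moved the counts of called genes most. In the knockout against wild type it left 11 higher, in the mutant 1 higher and in overexpression 7 higher and 1 lower. Between the lines it left 10 higher and 1 lower for the knockout against the mutant, 10 higher and 3 lower for the knockout against overexpression, and 6 higher and 3 lower for overexpression against the mutant. The count of 0 lower in the knockout became 3 with a filter at a mean CPM of 1, 3 with only the 2 groups compared, and 0 to 2 with each library left out. In the mutant, the 5 higher became 8 with median-ratio scaling, 3 with library size only, 3 with only the 2 groups compared and 3 to 7 with each library left out, the 3 arising without wild-type replicate 1, wild-type replicate 2 or mutant replicate 1. The 0 lower in the mutant became 1 with library size only, 1 with the mean CPM filter and 0 to 2 with each library left out. For the knockout against the mutant, the 2 lower ranged from 1 to 2 with a library left out. The causes of these moves were not tested. Less the median of its neighbours, Sqle turned to 0.029 in overexpression against wild type and to 0.0098 in overexpression against the mutant.

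A replicate block gave 22 higher and 1 lower in knockout cells, 6 and 1 in mutant cells, 10 and 10 in overexpression, 21 and 2 for the knockout against the mutant, 20 and 5 for the knockout against overexpression, and 10 and 11 for overexpression against the mutant; the numbers do not pair the libraries. Over single genes, 1397 of 1440 values under other settings kept direction and side of the threshold, 20 lost a call and 23 gained one. With each library left out, 1349 kept both, 60 lost a call and 31 gained one. No scaling moved the median of all genes by 0.1 on the log2 scale. At the lowest count of each gene, counting error (the inverse root of the count) had a median of 1.67%, and it exceeded the biological coefficient of variation of 4.172% for 2 of the 30 genes, Tm7sf2 and Acss2, with 7% for Acss2.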
